A study of Arabidopsis thaliana with 33 samples.

Results

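The ein5-1 dcl4-2 dcl2-1 triple mutant of Arabidopsis thaliana was compared with Col-0, the wild type, across every gene that reached 1 FPKM in either genotype. FPKM is the number of sequenced fragments scaled by transcript length and by library size. Of 33557 genes in the table, 18549 met this minimum. Poly(A) RNA had been sequenced from the aerial parts of 20-day-old untreated plants, which had spent 6 days on MS medium and then 14 days in soil, with collection at 15:00. The groups used here were the triple mutant, its double mutants ein5-1 dcl4-2 and ein5-1 dcl2-1, the 3 single mutants ein5-1, dcl4-2 and dcl2-1, and Col-0, out of 11 genotypes with 3 libraries each. For single genes, values are also given from the genotypes with a ski2-2 allele, which are ski2-2 alone and combined with dcl4-2, with dcl2-1 or with both. The labels give the alleles alone, with no number of independent lines or plants per library, no harvest date and no word on whether libraries came from separate sowings. The table holds a single FPKM for each gene in each genotype, pooled over its libraries. Values are therefore given without an SD, and no test between the triple mutant and Col-0 was possible. A gene is called higher or lower where its log2(FPKM + 1) value differed by at least 1, a 2-fold step on that scale, and this describes these pooled values only.

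EIN5, also called XRN4, is a cytoplasmic exoribonuclease that degrades decapped mRNA from its 5′ end. Dicer-like enzymes dice double-stranded RNA into small interfering RNAs (siRNAs), and DCL4 and DCL2 yield siRNAs that differ in length. DCL4 makes the trans-acting siRNAs (tasiRNAs) that silence auxin response factors and other targets, and DCL2 acts on part of the same substrates where DCL4 is missing. The circadian clock of Arabidopsis is built from morning genes, led by CCA1 and LHY, and from day and evening genes such as PRR5, TOC1, ELF4 and LUX. The morning and the evening genes repress each other, and their levels swing strongly over each day.

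The triple mutant and Col-0 stood far apart in many clock genes, with LHY and CCA1 among the 12 lowest genes of the triple mutant and the clock output GRP7 among the 12 highest. Across all genes, 873 were higher in the triple mutant, which is 4.71% of those measured, and 657 were lower, which is 3.54%. The median difference of all measured genes was 0.03. At 4-fold, 156 genes were higher and 121 were lower. Protein-coding genes made up 824 of the 873 and 631 of the 657, by the TAIR10.1 annotation.

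**Figure D1:**
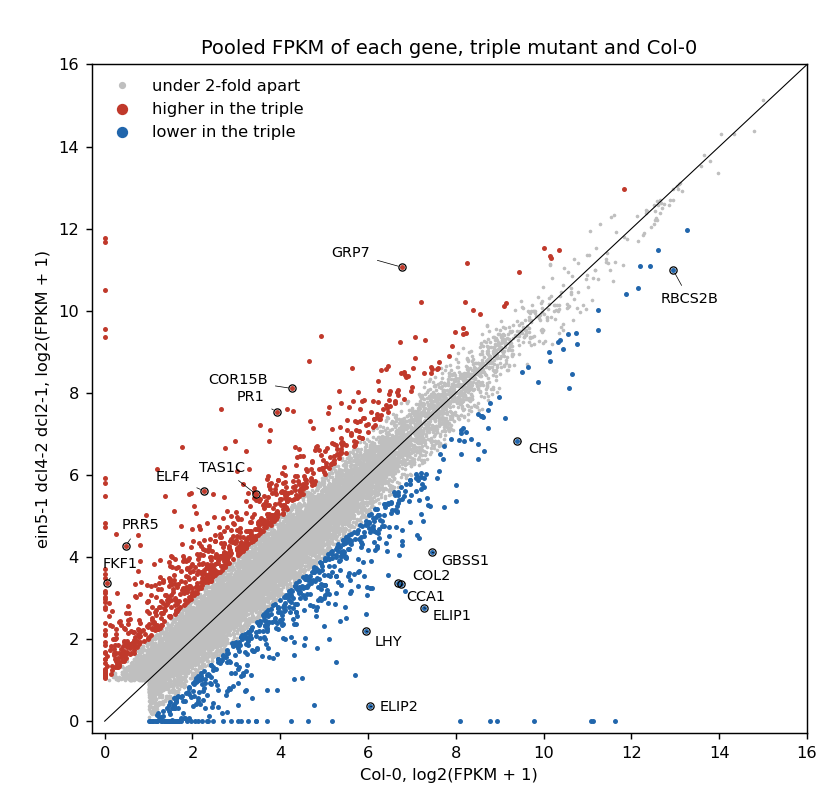
Each point is 1 gene, with log2(FPKM + 1) in the triple mutant on the vertical axis and in Col-0 on the horizontal axis. The 873 higher genes (red) include GRP7, ELF4 and COR15B, and the 657 lower genes (blue) include LHY, CCA1 and ELIP2. Points on an axis are genes listed at 0 in 1 genotype.

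Among genes with at least 5 FPKM in either genotype and above 0 in both, the largest excess in the triple mutant on the log2(FPKM + 1) scale was in AT2G33830, a dormancy and auxin associated gene, at 195 FPKM in the triple mutant and 5.24 FPKM in Col-0. AT5G62360, an invertase inhibitor family gene, had 69.3 FPKM in the triple mutant and 1.29 FPKM in Col-0. AT1G56300, which encodes a DnaJ-domain protein, had 101 FPKM in the triple mutant and 2.38 FPKM in Col-0. The other 9 of the 12 highest were AT2G15960, PAO2, GRP7, AT4G30650, AT4G16146, AT1G07050, RbcX1, MEE14 and COR15B, with differences of 3.84 to 4.45. The 12 lowest were led by ELIP2, an early light-induced protein, with 0.283 FPKM in the triple mutant and 65.4 FPKM in Col-0. After it came AT2G01008, ELIP1, AT3G41762, AT2G27420, LHY, AT3G28270, AT3G24460, COL2, AT3G24420, GBSS1 and CCA1, with differences of -4.56 to -3.31. Genes listed at 0 in Col-0 were led by 3 small nucleolar RNAs, SNOR108, AT1G19376 and AT1G03502, at 1461 to 3504 FPKM in the triple mutant. Those listed at 0 in the triple mutant were led by AT3G47348, AT2G24592 and AT2G20721, at 2150 to 3171 FPKM in Col-0, of which the first and the last are small nucleolar RNAs.

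The mutated genes were read first as a check of the labels. EIN5 (AT1G54490) was at 8.43 FPKM in the triple mutant and 17.604 FPKM in Col-0. DCL2 (AT3G03300) was at 2.35 FPKM in the triple mutant and 5.10 FPKM in Col-0, and DCL4 (AT5G20320) was at 2.98 FPKM in the triple mutant and 5.93 FPKM in Col-0. The differences were -0.98, -0.86 and -0.80 on the log2(FPKM + 1) scale, short of the 2-fold step. With a pseudocount of 0.1 in place of 1, EIN5 and DCL2 passed it, at -1.05 and -1.09. DCL4 was at 3.15 to 6.91 FPKM in the 6 genotypes without dcl4-2 and at 2.98 to 4.89 FPKM in the 5 with it. These ranges overlap, so the DCL4 level does not check that label. The values count fragments over whole genes and do not show which part of a mutated transcript remained. Genes of green tissue were abundant in both genotypes, with a summed FPKM of 42 photosynthesis genes of 276842 in the triple mutant and 321295 in Col-0. Of 8 root markers 4 reached 1 FPKM in either genotype, led by PYK10, a beta-glucosidase of the ER body, at 73.2 FPKM in the triple mutant and 38.8 FPKM in Col-0, and none was 2-fold apart. Of 10 flower markers 8 were measured, with summed values of 17.0 FPKM in the triple mutant and 23.5 FPKM in Col-0 over the list, and SEP1 alone was lower, at 0.758 FPKM in the triple mutant and 6.11 FPKM in Col-0. The part of such cells in the results below was not tested.

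Morning genes of the clock were low in the triple mutant. Of 10 such genes measured, 5 were lower, none was higher, and the list's median difference was -1.301. LHY, a MYB repressor that acts around dawn, was at 3.57 FPKM in the triple mutant, 148 FPKM in ein5-1 dcl4-2, 3.38 FPKM in ein5-1 dcl2-1, 232 FPKM in ein5-1, 47.3 FPKM in dcl4-2, 1.66 FPKM in dcl2-1 and 61.1 FPKM in Col-0. Its level was thus 17.1 times lower in the triple mutant than in Col-0, and the 3 genotypes with dcl2-1 lay far below the 4 without it. CCA1, the partner of LHY, was at 9.34 FPKM in the triple mutant, 69.3 FPKM in ein5-1 dcl4-2, 5.14 FPKM in ein5-1 dcl2-1, 180 FPKM in ein5-1, 85.5 FPKM in dcl4-2, 3.32 FPKM in dcl2-1 and 102 FPKM in Col-0. The same 3 genotypes were the low ones. RVE8, an activator of evening genes, had 4.68 FPKM in the triple mutant and 43.9 FPKM in Col-0. Its coactivator LNK2 had 40.0 FPKM in the triple mutant and 257 FPKM in Col-0, and RVE1, which links the clock to auxin, had 2.26 FPKM in the triple mutant and 9.60 FPKM in Col-0. The other 5 stayed within 2-fold: LNK1 at -0.90, PRR9 at -0.43, RVE4 at -0.30, RVE6 at -0.13 and PRR7, the latest of this group in the day, at 0.48.

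Day and evening genes of the clock were high in the triple mutant. Of 12 listed, 11 were measured, 9 were higher and none was lower, and the median difference was 1.71. PRR5, a repressor of CCA1 and LHY, was at 18.3 FPKM in the triple mutant, 11.9 FPKM in ein5-1 dcl4-2, 15.1 FPKM in ein5-1 dcl2-1, 0.117 FPKM in ein5-1, 0.568 FPKM in dcl4-2, 31.1 FPKM in dcl2-1 and 0.391 FPKM in Col-0. The triple mutant thus shared high values with both double mutants and with dcl2-1, and Col-0, ein5-1 and dcl4-2 were below 1 FPKM. FKF1, a blue-light receptor of photoperiodic flowering, had 9.35 FPKM in the triple mutant and 0.0348 FPKM in Col-0, and PRR3 had 6.30 FPKM in the triple mutant and 0.0752 FPKM in Col-0. ELF4, LUX and ELF3 encode the evening complex, a repressor of growth and of morning genes. ELF4 was at 47.8 FPKM in the triple mutant and 3.77 FPKM in Col-0, LUX was at 24.9 FPKM in the triple mutant and 3.48 FPKM in Col-0, and ELF3 was at 12.6 FPKM in the triple mutant and 3.16 FPKM in Col-0. TOC1, the evening repressor of CCA1, had 15.2 FPKM in the triple mutant and 5.14 FPKM in Col-0. GI, which stabilises the F-box protein ZTL, had 23.5 FPKM in the triple mutant and 7.41 FPKM in Col-0, and CHE, a TCP factor, had 198 FPKM in the triple mutant and 85.95 FPKM in Col-0. ZTL and LKP2, F-box relatives of FKF1, differed by -0.43 and -0.10. BOA, a relative of LUX, was under 1 FPKM in both, at 0.715 FPKM in the triple mutant and 0.221 FPKM in Col-0.

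**Figure D2:**
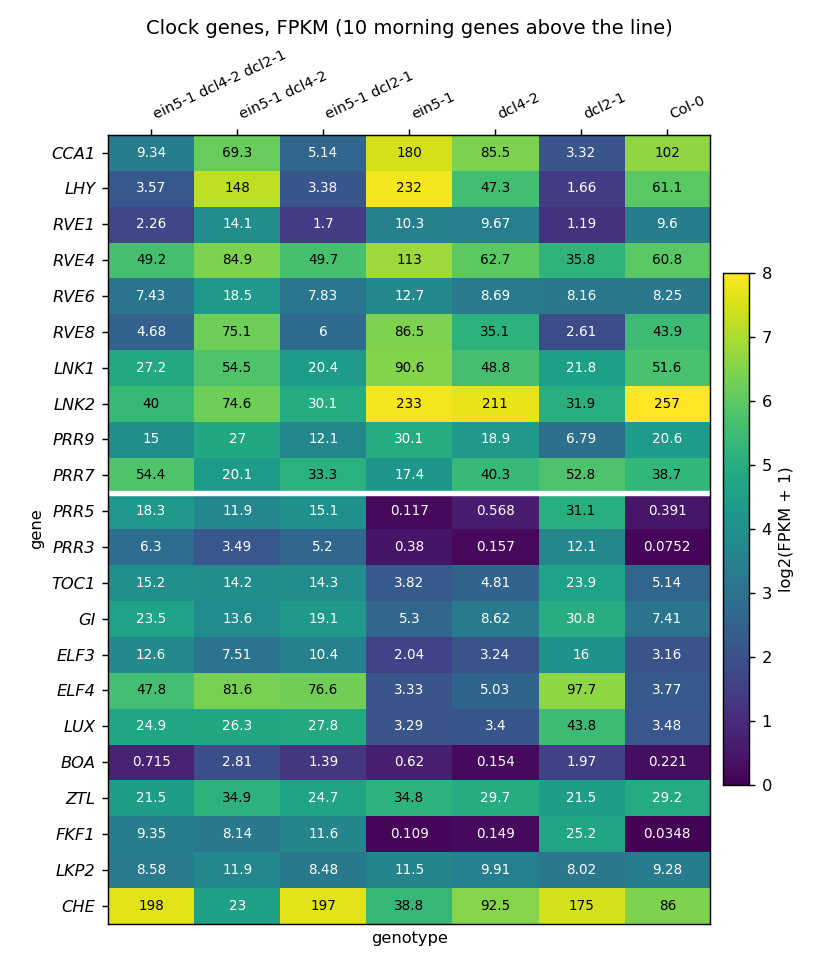
Rows are the 22 clock genes and columns are 7 genotypes, the triple mutant at the left and Col-0 at the right, with pooled FPKM in each cell and log2(FPKM + 1) as colour. CCA1, LHY and RVE8 are low and PRR5, ELF4 and FKF1 are high in the triple mutant, ein5-1 dcl2-1 and dcl2-1, and ein5-1 dcl4-2 is high for both kinds of gene.

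The clock state of the triple mutant did not go with the loss of the 2 Dicers in every genetic background. In ski2-2 dcl4-2 dcl2-1, which carries the same Dicer alleles with a mutation in SKI2, an RNA helicase that works with the exosome, LHY was at 188 FPKM, PRR5 at 0.133 FPKM and GRP7 at 76.2 FPKM, on the side of Col-0. In ski2-2 dcl2-1, LHY was at 1.69 FPKM, PRR5 at 22.7 FPKM and GRP7 at 2588 FPKM, on the side of the triple mutant. All genotypes carry the same collection hour in the labels, and a difference in how or when a genotype was grown or harvested cannot be told apart from its alleles in these data. Many genes of the lists below are known to follow the daily cycle, and the part of the clock state in them was not tested.

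GRP7, a clock-driven glycine-rich RNA-binding protein that peaks towards evening, was at 2137 FPKM in the triple mutant, 1278 FPKM in ein5-1 dcl4-2, 2434 FPKM in ein5-1 dcl2-1, 147 FPKM in ein5-1, 102 FPKM in dcl4-2, 4108 FPKM in dcl2-1 and 108 FPKM in Col-0. This was 19.8 times the level of Col-0. Evening genes are known to be bound by CCA1, LHY and the RVE proteins at the evening element, which was searched here by the letters AAATATCT alone. The 250 bases before the annotated start of each gene were therefore searched for this element on either strand, and a match is a description of letters and not of binding. Among 824 promoters of genes that were higher in the triple mutant, 15.8% held it. Among 631 promoters of lower genes 3.65% did, among 16596 promoters of measured genes within 2-fold 4.67% did, and among all 26686 promoters 4.84% did. It was present in 6 of the 12 day and evening clock promoters and in 0 of the 10 morning ones. The related CCA1-binding site AAAAATCT was in 7.52% of promoters of higher genes, 5.23% of lower genes and 6.86% of genes within 2-fold. The G-box CACGTG was in 8.86% of promoters of higher genes, 13.2% of lower genes and 7.15% of genes within 2-fold, and in 5 of the 10 morning clock promoters, CCA1 and LHY included. None of these 3 motifs contains another.

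The evening element promoters of GRP7 and of 4 clock genes that were higher in the triple mutant are shown because they carry the element that was counted in a larger share of the higher genes. They are read from TAIR10.1 in the direction of the gene, 5′ to 3′, and end at the base before the annotated start, with each evening element on either strand in capitals. GRP7 (chr2:9266558-9266807, minus strand) held 3, LUX (chr3:17182792-17183041, plus strand) and FKF1 (chr1:25508389-25508638, plus strand) held 2 each, and PRR5 (chr5:8358547-8358796, minus strand) and TOC1 (chr5:24674713-24674962, plus strand) held 1 each.
GRP7: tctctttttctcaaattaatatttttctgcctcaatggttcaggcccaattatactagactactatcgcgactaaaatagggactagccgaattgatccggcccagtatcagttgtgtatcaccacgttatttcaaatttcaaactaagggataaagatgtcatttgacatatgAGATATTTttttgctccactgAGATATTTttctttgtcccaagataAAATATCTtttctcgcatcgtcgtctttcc
LUX: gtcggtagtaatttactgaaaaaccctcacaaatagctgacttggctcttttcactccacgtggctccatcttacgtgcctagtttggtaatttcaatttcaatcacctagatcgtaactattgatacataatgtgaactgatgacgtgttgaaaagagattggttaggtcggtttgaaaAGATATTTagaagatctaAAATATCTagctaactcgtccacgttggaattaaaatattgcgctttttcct
FKF1: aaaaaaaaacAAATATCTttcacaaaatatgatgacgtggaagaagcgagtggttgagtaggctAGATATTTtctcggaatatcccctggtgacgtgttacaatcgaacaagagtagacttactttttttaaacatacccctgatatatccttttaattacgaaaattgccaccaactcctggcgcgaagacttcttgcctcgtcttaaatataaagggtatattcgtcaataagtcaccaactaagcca
PRR5: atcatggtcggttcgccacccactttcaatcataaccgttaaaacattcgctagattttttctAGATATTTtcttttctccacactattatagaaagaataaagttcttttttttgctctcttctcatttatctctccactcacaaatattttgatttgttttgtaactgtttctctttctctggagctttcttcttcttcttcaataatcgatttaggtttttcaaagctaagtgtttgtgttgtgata
TOC1: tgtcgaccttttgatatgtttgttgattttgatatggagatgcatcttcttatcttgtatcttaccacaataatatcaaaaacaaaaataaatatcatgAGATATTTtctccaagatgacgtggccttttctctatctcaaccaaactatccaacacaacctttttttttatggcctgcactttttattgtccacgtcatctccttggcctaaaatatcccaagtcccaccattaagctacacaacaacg
In PRR3, GI, ELF3 and CHE, which were also higher, these letters were not in this window.

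Outputs of the clock went in both directions. Of 15 measured output and photoperiod genes, 2 were higher and 6 were lower, with a median of -0.66. GRP8, the close relative of GRP7, was the other higher gene, at 716 FPKM in the triple mutant and 253 FPKM in Col-0. The lower genes were led by COL2, a CONSTANS-like factor, at 9.11 FPKM in the triple mutant and 107 FPKM in Col-0, by CAT2 (AT4G35090), the main leaf catalase, at 275 FPKM in the triple mutant and 1533 FPKM in Col-0, and by COL1 at 7.70 FPKM in the triple mutant and 47.1 FPKM in Col-0.

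Starch enzymes did so too. Of 18 starch genes, 6 were higher and 5 were lower, with a median of 0.42. GBSS1, the granule-bound synthase that makes amylose and a target of CCA1 and LHY, had 16.3 FPKM in the triple mutant and 175 FPKM in Col-0. BAM9, a beta-amylase without catalytic activity, had 9.57 FPKM in the triple mutant and 38.9 FPKM in Col-0. The other 3 lower genes, named after their values were seen, were the beta-amylases BAM3 and BAM1 and the ADP-glucose pyrophosphorylase subunit APL3, at -1.33, -1.102 and -1.105. Among the higher genes, the debranching enzyme ISA3 had 40.3 FPKM in the triple mutant and 10.5 FPKM in Col-0, and the glucan phosphorylase PHS2 had 166 FPKM in the triple mutant and 57.7 FPKM in Col-0.

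Flavonoid genes were low in the triple mutant. Of 20 measured flavonoid and anthocyanin genes, 13 were lower and none was higher, with a median of -1.15. The flavonol synthase FLS1 was at 10.9 FPKM in the triple mutant, 37.0 FPKM in ein5-1 dcl4-2, 18.9 FPKM in ein5-1 dcl2-1, 194 FPKM in ein5-1, 77.9 FPKM in dcl4-2, 11.2 FPKM in dcl2-1 and 87.2 FPKM in Col-0. F3H, TT7 and CHS, which act before it in the pathway, differed by -2.64, -2.24 and -2.57, and CHS, chalcone synthase, the entry enzyme, had 113 FPKM in the triple mutant and 676 FPKM in Col-0. Of 11 light and UV-B genes, 5 were lower and 2 were higher, and 6 differences were below 0 and 5 above. The early light-induced proteins ELIP2 and ELIP1 led the lower ones, with ELIP1 at 5.79 FPKM in the triple mutant and 153 FPKM in Col-0. The bZIP factor HYH had 5.89 FPKM in the triple mutant and 43.3 FPKM in Col-0, and RUP2, a repressor of the UV-B receptor, had 5.83 FPKM in the triple mutant and 27.4 FPKM in Col-0. The 2 higher genes, named after their values were seen, were the auxin response repressors IAA19 and IAA29, with IAA19 at 19.4 FPKM in the triple mutant and 5.54 FPKM in Col-0 and IAA29 at 5.86 FPKM in the triple mutant and 1.36 FPKM in Col-0.

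Of 42 photosynthesis genes, 7 were lower and none was higher, with a median of -0.19. They were genes of carbon fixation. RBCS2B, a small subunit of Rubisco, had 2022 FPKM in the triple mutant and 7939 FPKM in Col-0. RCA, Rubisco activase, had 4008 FPKM in the triple mutant and 9832 FPKM in Col-0, and the Calvin cycle enzymes PRK and GAPB differed by -1.28 and -1.22. The others were SBPASE, RBCS1B and CA1, a carbonic anhydrase, which had 2182 FPKM in the triple mutant and 4677 FPKM in Col-0.

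In the ABA and drought list the largest differences were on the high side. Of 28 measured ABA and drought genes, 11 were higher and 2 were lower, with a median of 0.56. Differences were above 0 for 19 genes and below 0 for 9, down to -1.74. The genes named here are those with the largest differences and do not stand for the whole list. COR15B, a cold-induced chloroplast protein, was at 275 FPKM in the triple mutant, 73.9 FPKM in ein5-1 dcl4-2, 254 FPKM in ein5-1 dcl2-1, 9.68 FPKM in ein5-1, 18.7 FPKM in dcl4-2, 355 FPKM in dcl2-1 and 18.23 FPKM in Col-0. COR6.6 had 2282 FPKM in the triple mutant and 305 FPKM in Col-0, the dehydrin XERO2 had 15.3 FPKM in the triple mutant and 1.86 FPKM in Col-0, and CBF3, a factor that activates COR genes in the cold, had 9.22 FPKM in the triple mutant and 0.618 FPKM in Col-0. CBF and COR genes are known to be gated by the clock.

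Defence genes were on the same side. Of 19 salicylic acid and immunity genes, 7 were higher and none was lower, with a median of 0.44. PR1, an antimicrobial marker of salicylic acid, was at 185 FPKM in the triple mutant, 1658 FPKM in ein5-1 dcl4-2, 142 FPKM in ein5-1 dcl2-1, 24.98 FPKM in ein5-1, 9.38 FPKM in dcl4-2, 202 FPKM in dcl2-1 and 14.1 FPKM in Col-0. NIMIN1 and the camalexin enzyme PAD3 differed by 1.63 and 1.57, and WRKY38 by 1.51. Of 19 jasmonate genes, 4 were higher and none was lower, with a median of 0.56: AOC2, an enzyme of jasmonate synthesis, at 312 FPKM in the triple mutant and 74.1 FPKM in Col-0, the defensin PDF1.2b at 53.9 FPKM in the triple mutant and 12.4 FPKM in Col-0, VSP2 at 144 FPKM in the triple mutant and 40.3 FPKM in Col-0, and ORA59 at 7.12 FPKM in the triple mutant and 2.76 FPKM in Col-0. None of 16 ethylene genes was 2-fold apart, and their median was 0.05. At the share of all measured genes, 8.25%, a list of 16 would hold few such genes.

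Among cell wall genes, 6 of 19 expansins and xyloglucan enzymes were higher and none was lower, with a median of 0.60. XTH22, a touch-induced xyloglucan enzyme, had 71.8 FPKM in the triple mutant and 15.9 FPKM in Col-0, and XTH8, EXPA11 and XTH4 differed by 1.58, 1.39 and 1.35. Of 26 nitrogen genes, 3 were higher and 4 were lower, with nitrite reductase NIR1 at 159 FPKM in the triple mutant and 55.7 FPKM in Col-0 and the glutamine synthetase GLN1;4 at 15.3 FPKM in the triple mutant and 40.9 FPKM in Col-0. Of 11 iron genes, 1 was higher, the ferritin FER3 at 134 FPKM in the triple mutant and 54.8 FPKM in Col-0, and 4 were lower, led by the iron-deficiency peptide IMA3 at 7.41 FPKM in the triple mutant and 62.0 FPKM in Col-0. Of 13 senescence genes, 3 were lower: NAP, a senescence NAC factor, at 2.83 FPKM in the triple mutant and 18.9 FPKM in Col-0, SWEET15 at -1.17 and SGR1 at -1.02. Of 12 heat shock genes, 1 was higher, HSP18.2, and 4 were lower, HSP17.4, HSP17.6A, HSP17.8 and HSP70-4, and all were below 5 FPKM in both genotypes except HSP70-4 in Col-0 and HSP18.2 in the triple mutant. LSU1 was the 1 of 8 sulfur genes that was higher, at 19.9 FPKM in the triple mutant and 3.05 FPKM in Col-0, and SOC1, a flowering integrator, was the 1 of 7 flowering genes, at 55.4 FPKM in the triple mutant and 16.1 FPKM in Col-0. None of 8 phosphate, 19 cell division and 21 ribosomal protein genes was 2-fold apart, with medians of -0.08, 0.25 and 0.15. Since 8.25% of all measured genes were 2-fold apart, few or none would be met in lists of this size at that share. The same holds for the single sulfur and flowering genes.

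**Figure D3:**
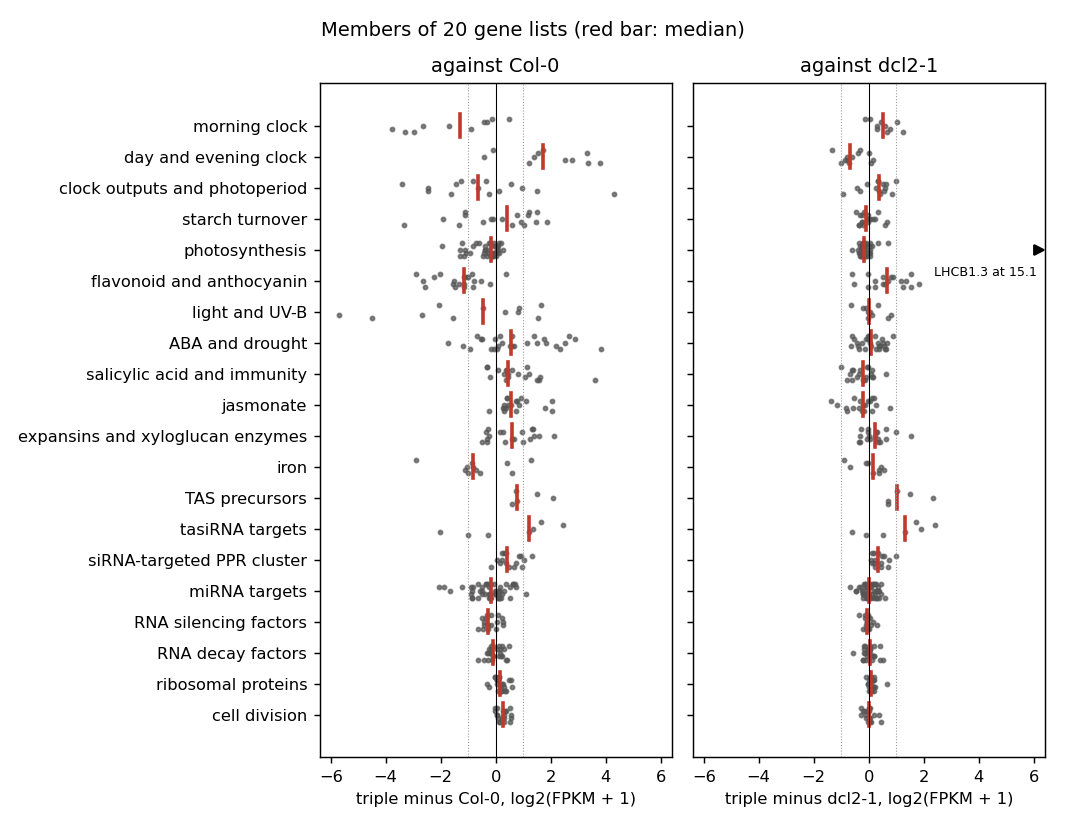
Each grey point is 1 gene of a list with at least 1 FPKM in either genotype, and the red bar is the list's median. The left panel is the triple mutant minus Col-0 and the right panel the triple mutant minus dcl2-1, both in log2(FPKM + 1), with dotted lines at the 2-fold step and an arrowhead for LHCB1.3, off the scale at 15.1 because it is listed at 0 in dcl2-1. Clock, flavonoid, light and stress lists spread widely against Col-0 and less against dcl2-1. All 5 measured TAS precursors lie to the right of 0 in both panels. The median of the tasiRNA targets does too, but 3 of 7 targets lie below 0 against Col-0 and 2 of 7 against dcl2-1.

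Small RNA pathways showed a second pattern, in the tasiRNA genes. TAS genes are noncoding transcripts that a microRNA cuts, RDR6 copies and DCL4 dices into tasiRNAs. Of 5 measured TAS genes all 5 had values in the triple mutant above those in Col-0 and 2 passed the 2-fold step, with a median of 0.76. TAS1C was at 45.1 FPKM in the triple mutant, 14.3 FPKM in ein5-1 dcl4-2, 7.66 FPKM in ein5-1 dcl2-1, 8.21 FPKM in ein5-1, 10.6 FPKM in dcl4-2, 8.01 FPKM in dcl2-1 and 9.92 FPKM in Col-0. The triple mutant stood alone at the top, 4.55 times the level of Col-0, and the other 6 lay between 7.66 and 14.3 FPKM. TAS2 was at 37.3 FPKM in the triple mutant, 20.4 FPKM in ein5-1 dcl4-2, 10.2 FPKM in ein5-1 dcl2-1, 8.72 FPKM in ein5-1, 11.6 FPKM in dcl4-2, 12.5 FPKM in dcl2-1 and 12.4 FPKM in Col-0. TAS3, whose tasiRNAs target auxin response factors, was at 69.1 FPKM in the triple mutant and 40.7 FPKM in Col-0, with 32.0 to 43.8 FPKM in the other 5. TAS1A and TAS1B differed from Col-0 by 0.58 and 0.76, and TAS4 was at 0.872 FPKM in the triple mutant and listed at 0 in Col-0.

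In the ski2-2 dcl4-2 dcl2-1 plants, whose clock genes were on the side of Col-0, TAS1C was at 55.04 FPKM, TAS2 at 31.6 FPKM and TAS3 at 77.1 FPKM. The 2 genotypes without either Dicer thus held the highest values of all 11 for each of these 3 genes, against 7.42 to 16.2 FPKM for TAS1C, 8.72 to 28.9 FPKM for TAS2 and 8.95 to 47.6 FPKM for TAS3 in the other 9. The authors' deposited table gives a q of 0.000201 for the triple mutant over ein5-1 dcl4-2 for each of the 3. This is the smallest q in that table and many genes share it, all 42 photosynthesis genes included, so it does not rank them. By those values TAS1C rose by a log2 ratio of 1.66 in the triple mutant over ein5-1 dcl4-2, in the authors' deposited table, while TAS2 and TAS3 had ratios of 0.87 and 0.90.

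Targets of tasiRNAs stood on the high side as well. Of 7 measured targets, 4 were higher in the triple mutant than in Col-0 and 1 was lower, with a median of 1.21. ARF3, an auxin response factor of leaf polarity, was at 31.3 FPKM in the triple mutant, 14.0 FPKM in ein5-1 dcl4-2, 15.2 FPKM in ein5-1 dcl2-1, 6.85 FPKM in ein5-1, 25.6 FPKM in dcl4-2, 12.01 FPKM in dcl2-1 and 12.97 FPKM in Col-0. ARF4 was at 32.1 FPKM in the triple mutant, 30.5 FPKM in ein5-1 dcl4-2, 8.97 FPKM in ein5-1 dcl2-1, 13.03 FPKM in ein5-1, 31.5 FPKM in dcl4-2, 7.86 FPKM in dcl2-1 and 11.96 FPKM in Col-0. For ARF4 the 3 genotypes with dcl4-2 were the high ones and lay close together. HTT1 and HTT2, thermotolerance genes targeted by TAS1 siRNAs, followed dcl4-2 too. HTT2 was at 30.5 FPKM in the triple mutant, 48.1 FPKM in ein5-1 dcl4-2, 11.1 FPKM in ein5-1 dcl2-1, 15.8 FPKM in ein5-1, 20.9 FPKM in dcl4-2, 8.54 FPKM in dcl2-1 and 9.19 FPKM in Col-0. HTT1 was at 4.86 FPKM in the triple mutant, 14.1 FPKM in ein5-1 dcl4-2, 1.497 FPKM in dcl4-2 and 0.0742 FPKM in Col-0. It was at most 0.742 FPKM in the 6 genotypes without dcl4-2, and its level differed widely among those with it. In the authors' deposited table its log2 ratio for the triple mutant over ein5-1 dcl4-2 is -1.54. ARF2 differed by -0.27. The MYB activators of anthocyanin PAP1 and PAP2, known targets of TAS4 siRNAs, were at 8.98 and 0.350 FPKM in the triple mutant and 18.9 and 4.55 FPKM in Col-0. MYB113 was under 1 FPKM in both. PAP1, PAP2 and MYB113 are also members of the flavonoid and anthocyanin list above, so their direction is not separate from that of the list.

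**Figure D4:**
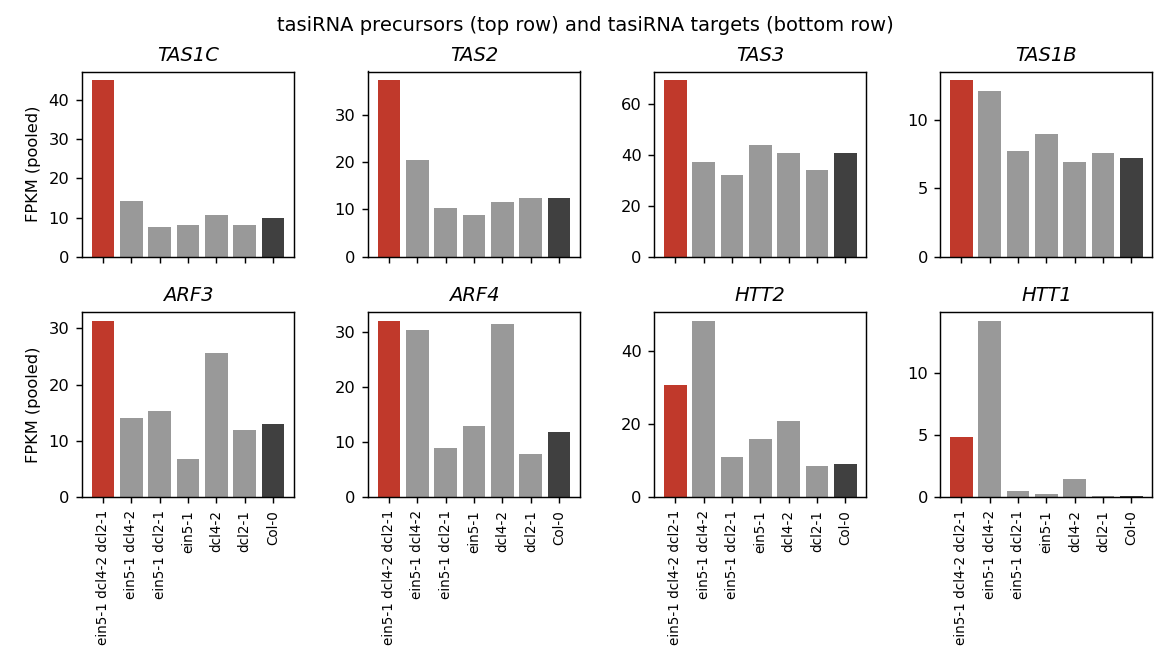
Bars are pooled FPKM in the triple mutant (red), 5 genotypes with part of its alleles (grey) and Col-0 (dark), for 4 TAS precursors in the top row and 4 targets in the bottom row. TAS1C, TAS2 and TAS3 are highest in the triple mutant, and ARF4 and HTT2 are high in all 3 genotypes with dcl4-2.

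The pentatricopeptide repeat genes that tasiRNAs and secondary siRNAs also target had values slightly above those of Col-0, with 15 of 16 measured genes above 0, a median of 0.42 and 2 genes past the 2-fold step. AT1G12775 had 5.49 FPKM in the triple mutant, 6.06 FPKM in dcl4-2 and 1.61 FPKM in Col-0, and AT1G63130 had 12.6 FPKM in the triple mutant, 10.13 FPKM in dcl4-2 and 5.64 FPKM in Col-0. Members of this family are near copies, so fragments may be split between them. AT1G63130 was just short of the step, at 0.99, with quantile normalization. Among 52 targets of microRNAs, which DCL1 makes, 1 was higher and 4 were lower, with a median of -0.18: GRF3 at 1.095, NFYA2 at -2.05, NFYA10 at -1.87, SPL11 at -1.66 and SCL6 at -1.24. Of all genes measured against Col-0, 8.25% were 2-fold apart, so these 5 of 52 are near the share of all genes. None of these 5 was 2-fold apart between the triple mutant and dcl2-1, where 1.65% of all measured genes were.

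The machinery itself held no gene past the step. None of 17 measured RNA silencing factors and none of 26 RNA decay factors was 2-fold apart, with medians of -0.27 and -0.09. Of all measured genes 8.25% were 2-fold apart, so lists of this size would hold few such genes at that share. DCL1 was at 5.10 FPKM in the triple mutant and 8.49 FPKM in Col-0, and AGO1, the main slicer, was at 34.1 FPKM in the triple mutant and 47.7 FPKM in Col-0. The decapping factor DCP1 had the largest difference of the decay genes, -0.64, and the 5′ decay cofactor LSM1B had 0.47. The genes known to yield DCL2-dependent siRNAs in plants without EIN5 and DCL4 were within 2-fold as well. NIA1, a nitrate reductase, was at 18.8 FPKM in the triple mutant, 113 FPKM in ein5-1 dcl4-2 and 20.9 FPKM in Col-0, and NIA2 was at 140 FPKM in the triple mutant, 172 FPKM in ein5-1 dcl4-2 and 109 FPKM in Col-0. SMXL4, a phloem development gene, was at 1.69 FPKM in the triple mutant, 0.565 FPKM in ein5-1 dcl4-2 and 2.05 FPKM in Col-0, and SMXL5 was at 4.41 FPKM in the triple mutant, 2.63 FPKM in ein5-1 dcl4-2 and 4.81 FPKM in Col-0.

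Set beside the genotypes with part of its alleles, the triple mutant was nearest to dcl2-1. Over dcl2-1, 156 genes (0.845%) were higher and 148 (0.802%) were lower, and 92 of these 304 were listed at 0 in 1 of the genotypes. Over ein5-1 dcl2-1, 188 genes (1.02%) were higher and 199 (1.08%) were lower. Over dcl4-2 there were 788 higher and 666 lower genes, over ein5-1 there were 1401 higher and 1465 lower, and over ein5-1 dcl4-2 there were 2816 higher and 3744 lower. The median absolute difference over all measured genes was 0.15 against dcl2-1, 0.19 against ein5-1 dcl2-1, 0.30 against dcl4-2, 0.39 against ein5-1, 0.64 against ein5-1 dcl4-2 and 0.29 against Col-0. These comparisons share the triple mutant, and the single differences come from single pooled values. Against Col-0, 1530 genes were 2-fold apart in the triple mutant, 1718 in dcl2-1 and 1956 in ein5-1 dcl2-1. The same count was 1373 in ein5-1, 278 in dcl4-2 and 6720 in ein5-1 dcl4-2.

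**Figure D5:**
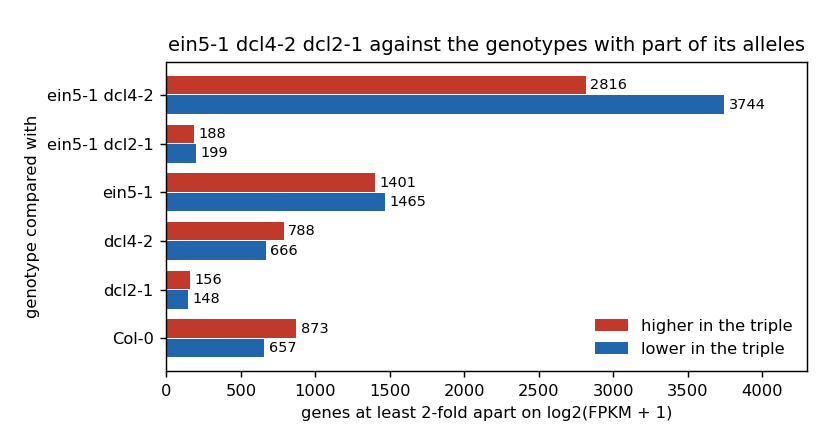
Bars are the numbers of genes at least 2-fold higher (red) and lower (blue) in the triple mutant than in the genotype named at the left. The counts run from 156 and 148 against dcl2-1 to 2816 and 3744 against ein5-1 dcl4-2.

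Against dcl2-1 the clock lists were the other way round and smaller. Morning genes had a median of 0.51, with CCA1 and PRR9 higher, and day and evening genes had a median of -0.68, with ELF4 and FKF1 lower. The flavonoid list had a median of 0.65, with 6 of 18 measured genes higher. The output, starch, salicylic acid and ABA lists held no gene 2-fold apart from dcl2-1. Only 1.65% of all genes measured in that comparison were 2-fold apart, so most lists would hold few or none at that share. Of the lists with a median of 1 or more against Col-0 in either direction, only the tasiRNA targets kept that direction and size against dcl2-1, with 4 of 7 higher and a median of 1.31. The TAS precursors had a median of 1.01 against dcl2-1, with TAS1C, TAS2 and TAS3 higher, and of 1.09 against ein5-1 dcl2-1.

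For the triple mutant over ein5-1 dcl4-2, the 1 comparison of the triple mutant with a test by the authors, genes passing a q of 0.05 and a 2-fold ratio in the authors' deposited table numbered 3202 that rose and 3729 that fell, 16.4% and 19.1% of 19484 measured. By that test the 42 photosynthesis genes all rose in the triple mutant, as did 18 of 19 cell division genes, and 18 of 22 flavonoid, 16 of 18 heat shock, 16 of 28 nitrogen, 15 of 20 salicylic acid, 21 of 33 ABA and drought, 12 of 14 senescence and 8 of 9 sulfur genes fell. PR1, CHS and LSU1 show the scale: in the triple mutant they were at 185, 113 and 19.9 FPKM, in ein5-1 dcl4-2 at 1658, 2834 and 906 FPKM, and in Col-0 at 14.1, 676 and 3.05 FPKM. CHS was thus below Col-0 in the triple mutant, while PR1 and LSU1 stayed above it.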

How the data were processed

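Poly(A) RNA of 33 libraries was sequenced, 3 for each of 11 genotypes. Per the submitters' processing notes, reads were aligned to TAIR10 with TopHat2 2.1.1 and values made with Cuffdiff, whose version is not given in the sources used here. The deposited FPKM values are pooled by the authors over a genotype's libraries. The deposited log2 ratio, p-value and q-value of the triple mutant over ein5-1 dcl4-2 come from the authors' test, and p-values then measure at most the spread between libraries that may be technical replicates. Read depth is not given and whole reads were not recovered from the pooled values, so no counting interval is stated. FPKM summed to 1218320 in the triple mutant and 1243560 in Col-0, with 13.5% and 13.9% in the 10 highest genes.

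Differences were computed here as log2(FPKM + 1), which understates the change of low genes, for genes with at least 1 FPKM in either genotype. Since the table holds no library values, the size rule of 1 replaced a test. Named genes were the 12 highest and 12 lowest with at least 5 FPKM and none at 0, up to 3 each way listed at 0, all members of the mutated, siRNA source, clock, TAS and tasiRNA target lists, and the 4 largest of every other list or all past the step where 5 or fewer were. The members and the 31 lists were chosen with earlier results of these data known. Gene names matched 32810 of 33557 identifiers in TAIR10.1, from which RefSeq promoter sequences were read for 26686 protein-coding genes; it is a later annotation than the authors' TAIR10, so starts may differ. The calling code was tested on simulated data. Alternatives were a pseudocount of 0.1, a minimum of 5 FPKM or none, median-of-ratios scaling, quantile normalization, a 4-fold step and other genotypes in the place of Col-0. Python 3.11.15 with numpy 2.4.6, pandas 2.3.3 and matplotlib 3.10.9 was used.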

Additional observations from a re-analysis of the deposited data

How the results depend on the processing

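No paired analysis was possible because the table holds 1 pooled value per genotype and no library values, and leaving out each replicate could not be run for the same reason. The 1530 genes at least 2-fold apart between the triple mutant and Col-0 (873 higher, 657 lower) became 2176 with a pseudocount of 0.1, 1243 with a minimum of 5 FPKM, 1530 with no minimum, 1531 with median-of-ratios scaling and 1526 with quantile normalization. At 4-fold they were 277 (156 higher, 121 lower), against dcl2-1 304 (156 higher, 148 lower) and against ein5-1 dcl2-1 387 (188 higher, 199 lower). Scaling the other comparisons of the triple mutant, an alternative added after the data were seen, moved none of their counts by over 1.5 times. The median of the morning clock list turned to 0.51 against dcl2-1 and 0.28 against ein5-1 dcl2-1, that of the flavonoid list to 0.65 and 0.22, and that of the day and evening clock list to -0.68 against dcl2-1 and 0.01 against ein5-1 dcl2-1; the cause was not tested. Of 168 named genes, 155 stayed on their side of the step with a pseudocount of 0.1, 167 with median-of-ratios scaling and 166 with quantile normalization, the other 13 under the pseudocount now past it, and none changed direction past the step. Without read counts or library values, no difference can be set against counting or replicate error, and low values and short RNAs are the least certain.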

Other observations

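Some single genes had patterns over the 11 genotypes that no list describes. PAO2 (AT2G43020), a polyamine oxidase, was at 22.6 FPKM in the triple mutant and 10.4 FPKM in ein5-1 dcl4-2, and at 0.182 to 0.204 FPKM in the other 9, Col-0 included. The authors' deposited table gives a q of 0.663 for the triple mutant over ein5-1 dcl4-2. XPL1 (AT3G18000), a phosphoethanolamine methyltransferase, was at 31.8 FPKM in the triple mutant, 25.4 FPKM in dcl4-2 and 22.5 FPKM in Col-0, and at 1.58 to 2.81 FPKM in the other 8. Its q for the triple mutant over ein5-1 dcl4-2 in the authors' deposited table is 0.111. LHCB1.3, a light-harvesting protein, was at 35732 FPKM in the triple mutant and 32892 FPKM in Col-0 and is listed at 0 in dcl2-1. AT2G01008 and AT3G41762 were at 1.19 and 0.305 FPKM in the triple mutant and at 50.7 and 26.4 FPKM in Col-0. The highest value of either gene in any other genotype was 8.31 FPKM, for AT2G01008 in ski2-2 dcl4-2.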
